A study of Homo sapiens with 24 samples.

Results

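The genes described here encode the replicative helicase and the factors that switch it on: MCM2, MCM3, MCM4, MCM5, MCM6 and MCM7, which form the hexamer, CDC45, GINS1 and GINS2, which join it, and MCM10. They are 10 of the 60675 genes in the count tables, taken as a list of symbols matched to the Ensembl identifiers. All 10 passed the filter on low counts in every comparison.

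MCM2 to MCM7 are loaded on DNA at origins as an inactive ring during G1, with the help of the origin recognition complex, CDC6 and CDT1. In S phase, kinases and firing factors bring CDC45 and the GINS complex to the ring, and the assembly of CDC45, MCM and GINS unwinds DNA ahead of the polymerases, with MCM10 acting in its activation. These genes are known as targets of E2F transcription factors, they are expressed in cycling cells, and MCM proteins are used as markers of proliferation in tumours, renal cancer included.

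RNA-seq of total RNA was carried out in ACHN, a human renal cancer line labelled ccRCC, and in HK-2, a line of human kidney proximal tubule epithelium that was immortalized with papillomavirus oncogenes. In each line the groups were a control hairpin (shNC), a hairpin against the histone H3K4 demethylase KDM5C (shKDM5C), a hairpin against the transcription factor YY1 (shYY1) and both (Dsh), with 3 replicates per group and 24 libraries in all. Hairpins were delivered stably in the lentiviral vector pLKO.1 under puromycin. For Dsh the YY1 hairpin came first and the KDM5C hairpin, on a vector that also encodes GFP, was added second, so that Dsh cells were also picked by their fluorescence. Which of the hairpins made against each gene served for sequencing was not given in the sources used here, nor whether replicates came from separate cultures, so p-values measure only the spread between these libraries, which may be technical. The comparisons asked what the loss of KDM5C, of YY1 or of both changed, and whether the loss of both changed more than the single losses add up to.

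Between 15926561 and 24272298 read pairs were counted per library. Values are given as CPM, counts divided by the size of their library after TMM scaling over the 24 libraries. KDM5C fell in shKDM5C and Dsh cells of both lines, with log2 fold changes against shNC of -0.73 and -0.80 in ACHN and -1.74 and -1.49 in HK-2. YY1 fell in shYY1 and Dsh cells, by log2 fold changes of -0.88 and -0.51 in ACHN and -1.70 and -1.49 in HK-2. KDM5C was higher in shYY1 cells, by 0.34 in ACHN (adjusted p = 1.14e-08, edgeR) and 0.35 in HK-2 (adjusted p = 1.54e-05, edgeR). The remaining YY1 in ACHN was 97.0 ± 7.07 CPM in Dsh and 76.8 ± 3.57 CPM in shYY1 cells (SD, n = 3). Replicate 1 of HK-2 shKDM5C stood apart: its correlation with the other replicates of its group was at most 0.958 across genes, where every other pair of HK-2 replicates was at 0.985 or above. Counts of called helicase genes that rest on it are given with and without it. Shares of the hexamer, correlations and values of other genes include it. Epithelial keratins and PAX8 were expressed in both lines (lowest value of PAX8 157.8 CPM), but LRP2, which marks mature proximal tubule, was at a median of 0 in both. Of 6 markers of leukocytes, endothelium and fibroblasts, PTPRC, CDH5 and COL1A2 had a median of 0, and the 6 summed to 553.9-604.4 CPM in ACHN shNC against 128.0-144.1 CPM in ACHN Dsh, almost all from COL1A1, which varied from 47.9 to 604.2 CPM over ACHN libraries. Their part in the changes described here was not tested.

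The promoters of these genes were examined first, since their known regulation runs through short E2F letters near the start. RefSeq sequences of 300 bases (250 before to 50 after the start, GRCh38.p14) were at hand for 8 of the 10 genes, MCM4 and MCM5 excepted. The letters TTCCCGC or TTGGCGC, searched on both strands, occurred in the first listed promoter of 5 of the 8: MCM3, MCM6, MCM7, GINS1 and GINS2. Over the 35116 promoters of this length, 9.23% held them. CCAAT on either strand, the core of the NF-Y site, occurred in 7 of the 8, all but MCM2, against 34.6% of all promoters. In MCM7, 1 CCAAT match overlaps the E2F letters. Neither TTTGAA, the CHR element of late cell cycle genes, nor AANATGG, the core letters of YY1 sites, occurred in these windows in any of the 8, against 15.2% and 15.6% of all promoters. A match is a description of letters, not a bound site. The search took these exact letters only: TTGGCGG, for instance, stood in the CDC45 and MCM10 windows and was not searched. Nor was TTTCGCGC, which stood in the MCM2 window. Absence of the letters thus does not show that a site is absent, in these windows or elsewhere in the gene.

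The 120 bases from 100 before the start to 20 after its first base are shown for the 5 genes with E2F letters, since in ACHN Dsh cells they include the 2 genes that fell most (GINS2 and MCM6) and the 1 that fell least (GINS1). They read 5′ to 3′ on the gene's own strand, with the E2F letters inside the window in capitals, at chr6:52284723-52284842 (minus strand) for MCM3, chr2:135876424-135876543 (minus) for MCM6, chr7:100101378-100101497 (minus) for MCM7, chr20:25407573-25407692 (plus) for GINS1 and chr16:85688935-85689054 (minus) for GINS2.
MCM3: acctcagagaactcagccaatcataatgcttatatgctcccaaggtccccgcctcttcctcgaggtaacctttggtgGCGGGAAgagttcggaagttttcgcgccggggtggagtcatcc
MCM6: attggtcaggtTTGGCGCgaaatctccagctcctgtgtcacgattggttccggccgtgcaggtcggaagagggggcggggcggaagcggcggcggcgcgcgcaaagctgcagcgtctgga
MCM7: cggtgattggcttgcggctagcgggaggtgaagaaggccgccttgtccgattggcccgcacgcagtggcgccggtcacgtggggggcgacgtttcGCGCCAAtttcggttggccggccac
GINS1: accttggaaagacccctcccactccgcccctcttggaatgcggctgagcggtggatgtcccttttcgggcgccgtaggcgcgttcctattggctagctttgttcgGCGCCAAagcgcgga
GINS2: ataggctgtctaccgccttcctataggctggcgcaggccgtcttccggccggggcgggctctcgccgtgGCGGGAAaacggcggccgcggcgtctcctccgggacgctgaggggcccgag
The E2F letters began 23 bases before the start in MCM3, 89 in MCM6, 5 in MCM7 and 31 in GINS2, and 5 bases after it in GINS1. MCM3, MCM6 and MCM7 each had a further match outside the printed window, at 173, 151 and 187 bases before the start.

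Levels of different genes were compared as RPKM, CPM divided by the exonic length in kilobases. MCM7, which also hosts the microRNA cluster of miR-106b in an intron, had the highest level in both control lines, 68.3 ± 1.29 RPKM in ACHN and 143.1 ± 5.04 RPKM in HK-2 (SD, n = 3). In ACHN shNC the order below it was MCM6 (39.7 RPKM), MCM3 (36.6), MCM4 (36.5), MCM2 (30.7), MCM5 (15.5), GINS2 (11.1), GINS1 (9.77), CDC45 (8.07) and MCM10 (5.56). MCM3 and MCM4 overlapped between replicates, and every other pair of neighbours in that order was separate. In HK-2 shNC the order was MCM7, MCM3 (82.2 RPKM), MCM4 (77.7), MCM2 (73.8), MCM6 (43.1), MCM5 (33.9), GINS1 (21.8), CDC45 (18.0), GINS2 (11.2) and MCM10 (7.87), with no overlap between neighbours. MCM5 is divided by 7338 bases of annotated exons, more than any other of the 10, which lowers its RPKM.

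**Figure D1:**
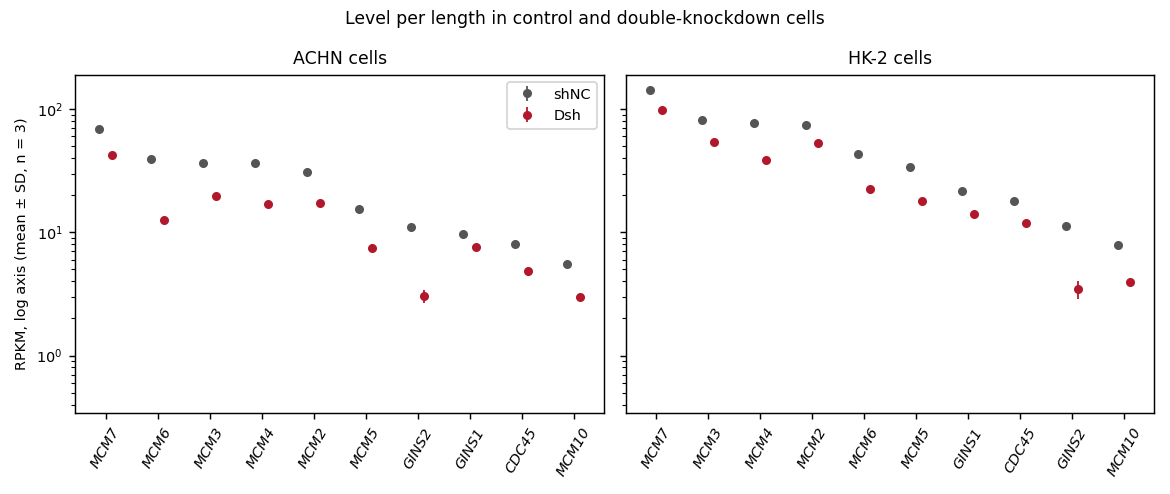
Level per length (RPKM, log axis, mean ± SD of 3 libraries) of the 10 genes in control (shNC, grey) and double-knockdown (Dsh, red) cells of each line, in the order of the control level. MCM6 stands next to MCM7 in ACHN shNC at 39.7 RPKM and below MCM3, MCM2 and MCM4 in ACHN Dsh at 12.7 RPKM, and GINS2 falls from 11.2 to 3.45 RPKM in HK-2.

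The control lines differed in most of these genes. 9 of the 10 were lower in ACHN shNC than in HK-2 shNC, with a median log2 fold change of -1.12 beside 0.02 over all genes. Of all genes tested, 38.0% were lower in ACHN at an adjusted p-value under 0.05 (edgeR's quasi-likelihood test, the call used throughout). The 2 genes near equality were GINS2 and MCM6. GINS2 had 38.3, 35.9 and 35.0 CPM in ACHN and 39.7, 34.9 and 34.9 CPM in HK-2, a log2 fold change of -0.01 (95% interval -0.15 to 0.12). MCM6 had 159.5, 161.3 and 169.5 CPM in ACHN against 172.9, 182.0 and 177.7 CPM in HK-2, a log2 fold change of -0.13 (SE 0.0383, adjusted p = 0.0036, edgeR). That call was lost without replicate 1 of ACHN shNC (-0.10, adjusted p = 0.0546, edgeR). The other 8 had between 1.42 times (MCM10) and 2.42 times (MCM2) as much in HK-2. PCNA, the polymerase clamp, and MKI67, the proliferation antigen Ki-67, were also lower in ACHN, by log2 fold changes of -0.83 and -0.92. In bulk RNA, fewer cycling cells and less RNA per cell cannot be told apart.

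The hexamer genes fell in Dsh cells of both lines. MCM6 (chr2:135839626-135876426, minus strand), a catalytic ring subunit, had 159.5, 161.3 and 169.5 CPM in ACHN shNC and 52.5, 52.4 and 52.2 CPM in ACHN Dsh. These groups lie far apart, at 3.10 times less MCM6 RNA in Dsh cells, a log2 fold change of -1.63 (SE 0.0485, adjusted p = 1.95e-15, edgeR). Single knockdown cells were between them, at 135.0, 126.0 and 127.2 CPM in shKDM5C and 125.6, 128.0 and 124.3 CPM in shYY1. In HK-2 cells MCM6 had 172.9, 182.0 and 177.7 CPM in shNC and 96.4, 95.7 and 86.7 CPM in Dsh, a log2 fold change of -0.94 (SE 0.0512, adjusted p = 7e-16, edgeR). The single knockdowns of HK-2 stayed near the control, at 161.7 to 173.6 CPM over all 6 libraries.

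MCM4, a catalytic subunit encoded on chromosome 8, had 255.6, 240.0 and 251.4 CPM in ACHN shNC and 116.5, 116.2 and 117.4 CPM in Dsh. In HK-2 it had 532.7, 522.1 and 536.6 CPM in shNC and 273.8, 259.6 and 255.2 CPM in Dsh. The fall was of like size in both lines, with log2 fold changes of -1.09 (SE 0.0442, adjusted p = 1.88e-13, edgeR) and -1.02 (SE 0.0413, adjusted p = 5.23e-19, edgeR), whose difference was -0.05 with a 95% interval from -0.17 to 0.07. In shKDM5C cells MCM4 stood at 214.5, 203.1 and 203.9 CPM in ACHN and at 424.8, 440.3 and 445.2 CPM in HK-2. Both sets lie below all controls of their line, and the fall was called in ACHN (log2 fold change -0.28, adjusted p = 1.14e-07, edgeR) but not in HK-2 (-0.25, adjusted p = 0.291, edgeR), where it was called without replicate 1 of shKDM5C (-0.27, adjusted p = 3.44e-06, edgeR).

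MCM2 (chr3:127598223-127622436, plus strand), a regulatory subunit that also binds histones, had 155.0, 149.5 and 147.1 CPM in ACHN shNC and 83.9, 80.2 and 88.6 CPM in Dsh. In HK-2 it had 370.1, 351.2 and 363.5 CPM in shNC and 269.9, 256.8 and 259.3 CPM in Dsh. The log2 fold changes were -0.83 (SE 0.0497) in ACHN and -0.47 (SE 0.042) in HK-2, the smallest fall of the 10 genes in HK-2. MCM3 (chr6:52264009-52284881, minus strand), another regulatory subunit, had 134.1, 135.0 and 131.8 CPM in ACHN shNC and 72.8, 75.4 and 68.1 CPM in Dsh. In HK-2 it had 291.2, 301.5 and 307.5 CPM in shNC and 204.0, 202.4 and 187.8 CPM in Dsh. Its log2 fold changes were -0.89 (SE 0.05) and -0.60 (SE 0.0449), again with no overlap between Dsh and control libraries.

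MCM5 (chr22:35400063-35425430, plus strand) forms with MCM2 the gate through which the ring opens. It had 117.8, 111.6 and 111.7 CPM in ACHN shNC and 52.3, 53.0 and 60.1 CPM in Dsh, against 246.7, 246.2 and 253.6 CPM in HK-2 shNC and 128.6, 136.9 and 126.3 CPM in Dsh. The log2 fold changes were -1.03 (SE 0.0573) and -0.93 (SE 0.0463). MCM7 (chr7:100092728-100101940, minus strand), a catalytic subunit, had 296.9, 306.2 and 295.9 CPM in ACHN shNC and 189.0, 178.8 and 191.7 CPM in Dsh. In HK-2 the values were 617.5, 612.4 and 653.0 CPM in shNC and 440.3, 433.6 and 424.7 CPM in Dsh. Its log2 fold changes of -0.68 (SE 0.0446) and -0.54 (SE 0.0395) were nearer to 0 than those of the other catalytic subunits, MCM4 and MCM6. Of its exonic length, 392 bases (8.94%) overlap AP4M1 on the other strand, which strand-blind counting cannot separate. The mean of AP4M1 was 15.0 to 24.5 CPM over the groups, and the part of the overlap in the MCM7 values was not tested.

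Because the subunits fell unequally, the share of each in the summed RPKM of the 6 hexamer genes moved. MCM6 made up 17.5% ± 0.617 of that sum in ACHN shNC and 10.9% ± 0.196 in ACHN Dsh (SD, n = 3). MCM7 went the other way, from 30.1% ± 0.623 to 36.4% ± 0.76. The single knockdowns of ACHN lay between, with MCM6 at 14.4% ± 0.346 in shKDM5C and 14.9% ± 0.146 in shYY1, and MCM7 at 35.3% ± 1.03 and 34.4% ± 0.382, nearer to Dsh than to shNC for MCM7. In HK-2 shNC and Dsh the same shares were 9.50% ± 0.312 and 7.91% ± 0.264 for MCM6, and 31.5% ± 0.515 and 34.6% ± 0.335 for MCM7. In HK-2 shYY1 they were 8.57% ± 0.537 and 33.5% ± 1.14, and in shKDM5C, with replicate 1 included, 10.4% ± 2.03 and 29.8% ± 2.61. The gaps between shNC and Dsh are larger than the SDs of either group, and they are a description of RNA, not of protein.

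**Figure D2:**
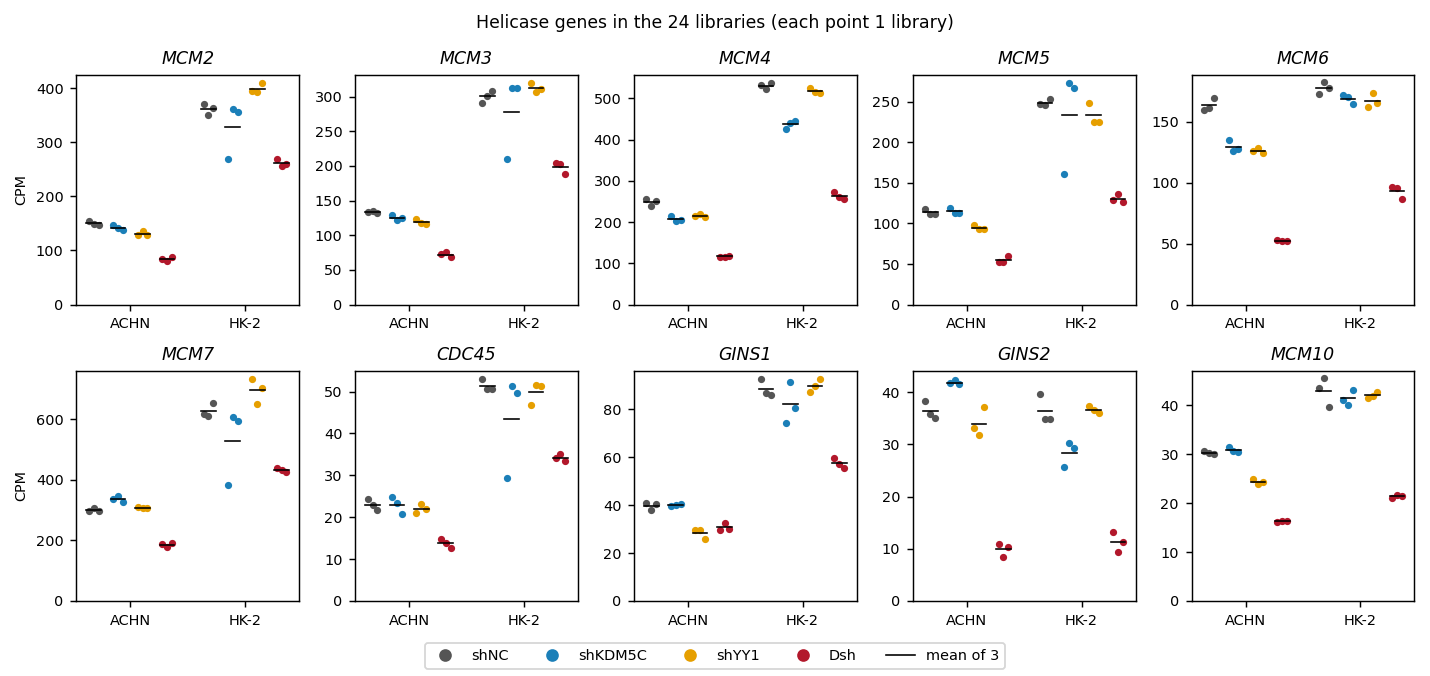
CPM of each of the 10 genes in the 24 libraries, 1 panel per gene with its axis from 0, the 4 groups of ACHN on the left and of HK-2 on the right, each point 1 library and each bar the mean of 3. The red Dsh points lie below all grey shNC points of the same line in every panel. The share of all genes whose groups lie apart in this way was not counted. The lowest blue point of HK-2 is replicate 1 of shKDM5C in every panel but those of MCM6 and MCM10.

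Among the factors that join the ring, GINS2 changed most. GINS2 (chr16:85676198-85690073, minus strand), a subunit of the GINS complex, had 38.3, 35.9 and 35.0 CPM in ACHN shNC and 10.9, 8.47 and 10.4 CPM in Dsh. In HK-2 it had 39.7, 34.9 and 34.9 CPM in shNC and 13.2, 9.33 and 11.3 CPM in Dsh. The control level was thus 3.63 times that of Dsh in ACHN and 3.24 times in HK-2, log2 fold changes of -1.86 (SE 0.0926, adjusted p = 3.38e-12, edgeR) and -1.70 (SE 0.108, adjusted p = 2.76e-14, edgeR). They differed by -0.15 between the lines, with a 95% interval from -0.44 to 0.15. In shYY1 cells GINS2 had 33.1, 31.8 and 37.2 CPM in ACHN and 37.3, 36.6 and 36.0 CPM in HK-2, which overlapped the controls in both lines. In shKDM5C cells the lines parted: 41.7, 42.4 and 41.5 CPM in ACHN lay above all controls, and 25.7, 30.2 and 29.3 CPM in HK-2 lay below them. The rise in ACHN was called (log2 fold change 0.19, adjusted p = 0.00645, edgeR), and the value in HK-2 was -0.33 (adjusted p = 0.284, edgeR), called only without replicate 1 of shKDM5C (-0.31, adjusted p = 0.0119, edgeR).

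GINS1 (chr20:25407727-25452628, plus strand), another GINS subunit, followed a course of its own in ACHN. It had 40.8, 37.8 and 40.5 CPM in shNC, 39.5, 40.1 and 40.4 CPM in shKDM5C, 29.7, 29.6 and 26.0 CPM in shYY1 and 29.7, 32.5 and 30.0 CPM in Dsh. It was thus lower in both groups that carry the YY1 hairpin, with log2 fold changes of -0.50 in shYY1 (SE 0.061, adjusted p = 1.75e-08, edgeR) and -0.36 in Dsh (SE 0.068, adjusted p = 0.000124, edgeR). Dsh and shYY1 cells did not differ beyond their spread (0.12, 95% interval -0.03 to 0.27). In HK-2 the values were 92.6, 86.8 and 86.1 CPM in shNC, 74.4, 91.5 and 80.4 CPM in shKDM5C, 87.0, 89.5 and 92.5 CPM in shYY1 and 59.8, 57.1 and 55.3 CPM in Dsh. There GINS1 fell in Dsh cells (-0.63, SE 0.0591, adjusted p = 2.06e-10, edgeR), while shYY1 overlapped the controls (0.02, 95% interval -0.10 to 0.13).

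CDC45 (chr22:19479459-19520612, plus strand), which joins the ring along with the GINS complex, had 24.3, 23.0 and 21.7 CPM in ACHN shNC and 14.8, 13.9 and 12.6 CPM in Dsh. In HK-2 it had 52.9, 50.6 and 50.5 CPM in shNC and 34.1, 35.2 and 33.4 CPM in Dsh. Its log2 fold changes were -0.73 (SE 0.0909, adjusted p = 1.08e-06, edgeR) and -0.59 (SE 0.07, adjusted p = 2.51e-08, edgeR). No call was made for CDC45 in any single knockdown of either line.

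MCM10 (chr10:13161554-13211104, plus strand), which helps activate the assembled helicase, had 30.7, 30.2 and 30.0 CPM in ACHN shNC, 25.0, 23.9 and 24.4 CPM in shYY1 and 16.2, 16.3 and 16.4 CPM in Dsh. In HK-2 it had 43.5, 45.6 and 39.7 CPM in shNC and 21.1, 21.7 and 21.5 CPM in Dsh. The log2 fold changes of Dsh were -0.89 (SE 0.075) and -1.0 (SE 0.0827), and the groups did not overlap. In the shYY1 cells of ACHN the change was -0.33 (SE 0.0606, adjusted p = 2.13e-05, edgeR), and in those of HK-2 it was -0.03 (95% interval -0.17 to 0.11).

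**Figure D3:**
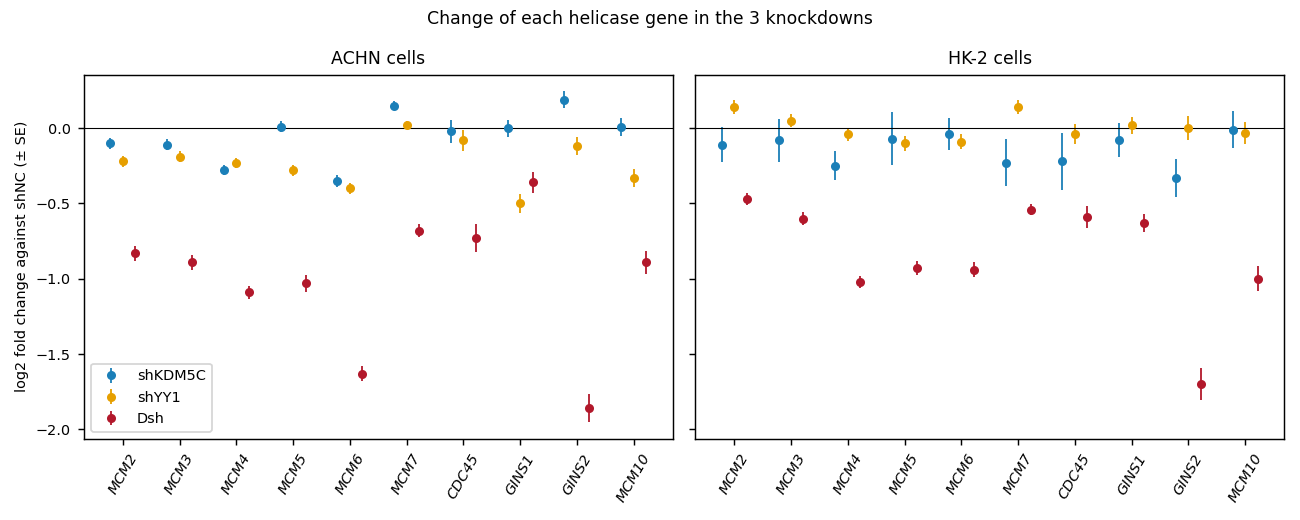
Log2 fold change against shNC (± SE) of the 10 genes in shKDM5C (blue), shYY1 (orange) and Dsh (red) cells, ACHN on the left and HK-2 on the right. In ACHN, GINS2 reaches -1.86 and MCM6 -1.63 in Dsh cells while GINS1 stops at -0.36. In HK-2 the single knockdowns stay between -0.33 and 0.14.

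Counted together, all 10 genes were lower in Dsh than in shNC cells of ACHN, with a median log2 fold change of -0.89, and all 10 in HK-2, with a median of -0.78. Of all genes tested, 32.0% were lower and 30.7% higher in ACHN, and 24.3% lower and 25.5% higher in HK-2, with medians over all genes of -0.01 and 0.00. At a log2 fold change of at least 1.5 the count was 2 in ACHN (MCM6 and GINS2), beside 5.61% of all genes, and 1 in HK-2 (GINS2), beside 1.84%. The counts of all 10 held without each library in turn. The summed CPM of the 10 genes was 1230.5-1253.1 in ACHN shNC and 627.1-647.6 in ACHN Dsh, and 2433.4-2503.0 in HK-2 shNC and 1461.5-1541.0 in HK-2 Dsh.

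The single knockdowns gave smaller and mixed changes. In shKDM5C cells of ACHN, 4 of the 10 were lower (MCM2, MCM3, MCM4 and MCM6) and 2 higher (MCM7 and GINS2), beside 27.7% and 28.9% of all genes. MCM6 changed most, with a log2 fold change of -0.35 (SE 0.0375, adjusted p = 1.34e-08, edgeR), and MCM7 rose by 0.15 (SE 0.0313, adjusted p = 0.00015, edgeR). MCM2 and MCM3, at -0.10 and -0.11, were no longer called with no filter on low counts or with all 4 groups in the fit, which left 2 lower. In shYY1 cells of ACHN, 7 of the 10 were lower, beside 24.5% of all genes, and none was called higher by edgeR, by DESeq2 or at an unadjusted p-value under 0.05. The 7 were GINS1 (-0.50), MCM6 (-0.40), MCM10 (-0.33), MCM5 (-0.28), MCM4 (-0.23), MCM2 (-0.22) and MCM3 (-0.19), and MCM7, CDC45 and GINS2 were not called.

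In HK-2 the single knockdowns moved few of the genes. In shKDM5C cells none was called by edgeR in either direction, beside 0.656% of all genes lower and 0.668% higher. At an unadjusted p-value under 0.05, 2 were lower and none higher, and DESeq2 called 0. Without replicate 1 of shKDM5C, 2 were lower (MCM4 and GINS2) and none higher, beside 10.9% and 11.5% of all genes. In shYY1 cells, 2 were higher, beside 14.3% of all genes, and none was called lower, beside 14.7%, by edgeR, by DESeq2 or at an unadjusted p-value under 0.05. The 2 were MCM2 at 394.5, 393.1 and 408.9 CPM and MCM7 at 732.4, 650.7 and 703.3 CPM, each with a log2 fold change of 0.14. That count was 0 with scaling by total counts, with all 4 groups in the fit, and without replicate 2 of shNC or replicate 3 of shYY1, and it was 1 without replicate 1 or 3 of shNC or replicate 1 of shYY1.

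Replicate 1 of HK-2 shKDM5C was low in some of the genes only. It had 382.3 CPM of MCM7 against 607.3 and 594.4 CPM in the other replicates, 161.2 CPM of MCM5 against 272.6 and 267.2, and 29.4 CPM of CDC45 against 51.4 and 49.6. MCM6 (171.4 against 170.0 and 164.1 CPM) and MCM10 (41.1 against 40.1 and 43.2 CPM) did not stand apart there. In the same library MKI67 was at 2085.8 CPM against 916.4 and 898.0 CPM, and KDM5C at 34.1 CPM against 67.5 and 67.1 CPM. It therefore was not uniformly low in cell cycle RNA, and what sets it apart was not tested.

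Dsh cells were also compared with each single knockdown directly. In ACHN, all 10 genes were lower than in shKDM5C (median log2 fold change -0.82, beside 30.9% of all genes lower), and 9 were lower than in shYY1 (median -0.72, beside 32.7%), GINS1 excepted. In HK-2, all 10 were lower than in shYY1 (median -0.76, beside 22.9%) and 6 were lower than in shKDM5C (median -0.66, beside 5.59%). Those 6 were GINS2, MCM10, MCM6, MCM5, MCM4 and GINS1. The HK-2 count against shKDM5C was 10 without replicate 1 of shKDM5C, beside 21.0% of all genes, and 3, 3 and 2 without replicate 1, 2 or 3 of Dsh. Shares of all genes without a Dsh library are not given here. These comparisons share the Dsh libraries with each other and with the comparison against shNC, so they are not independent.

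The fall in Dsh cells was deeper than the single changes add up to on the log2 scale for most of the genes. This was tested as an interaction, the Dsh change minus the sum of the shKDM5C and shYY1 changes, in a fit of the 12 libraries of a line. KDM5C (-0.42, adjusted p = 6.48e-06, edgeR) and YY1 (0.28, adjusted p = 0.00125, edgeR) themselves departed from that sum in ACHN. They were not called in HK-2 (-0.10 and 0.03). The part of this in the helicase interactions was not tested. In ACHN, 9 of the 10 were below the sum, with a median of -0.64, beside 28.8% of all genes. The gap was widest in GINS2, whose single changes were 0.19 and -0.12, and whose interaction was -1.95 (SE 0.111, adjusted p = 1.2e-13, edgeR). MCM6 (-0.91, SE 0.059, adjusted p = 1.45e-12, edgeR) and MCM7 (-0.88, SE 0.053, adjusted p = 3.74e-13, edgeR) followed. GINS1 was the exception at 0.12 (SE 0.092, adjusted p = 0.29, edgeR), its Dsh value being slightly above the sum.

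In HK-2 the interaction was called below 0 for 8 of the 10, with a median of -0.65, beside 4.4% of all genes. GINS2 again had the widest gap (-1.37, SE 0.177, adjusted p = 0.000567, edgeR), followed by MCM10 (-0.96, SE 0.133, adjusted p = 0.000884, edgeR) and MCM6 (-0.81, SE 0.12, adjusted p = 0.00136, edgeR). MCM7 (-0.46, adjusted p = 0.118, edgeR) and CDC45 (-0.33, adjusted p = 0.362, edgeR) were not called. Without replicate 1 of shKDM5C all 10 were called, beside 13.7% of all genes. Without any 1 library of shNC, shYY1 or Dsh the count was 5, and without replicate 2 or 3 of shKDM5C 7. Shares of all genes in those fits are not given here. With scaling by total counts it was 4, beside 622 of 17093 genes. GINS1 in HK-2 was at -0.57 (SE 0.124, adjusted p = 0.0129, edgeR), unlike in ACHN, but whether the interactions differ between the lines was not tested.

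**Figure D4:**
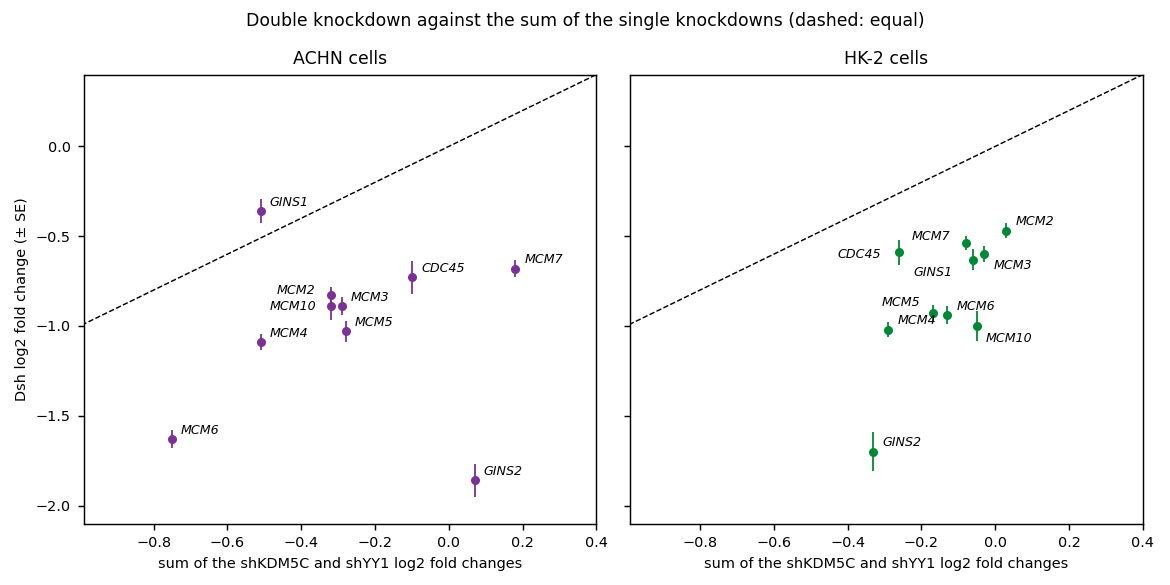
Dsh log2 fold change against shNC (± SE, vertical) and the sum of the shKDM5C and shYY1 log2 fold changes (horizontal) for each of the 10 genes in ACHN (left) and HK-2 (right), with a dashed line where both are equal. All HK-2 genes lie under the line, and in ACHN GINS1 alone lies above it, at a sum of -0.51 and a Dsh value of -0.36.

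The knockdown effects were then compared between the lines as differences of log2 fold changes, ACHN minus HK-2. For Dsh, 3 of the 10 fell more in ACHN, beside 22.7% of all genes lower: MCM6 (-0.68, SE 0.07, adjusted p = 3.45e-09, edgeR), MCM2 (-0.34, SE 0.0649, adjusted p = 6.9e-05, edgeR) and MCM3 (-0.26, SE 0.0671, adjusted p = 0.00175, edgeR). GINS1 fell less in ACHN (0.28, SE 0.0882, adjusted p = 0.00961, edgeR), 1 of the 10 beside 23.3% of all genes higher. That call was lost with no filter on low counts and without replicate 2 of ACHN shNC (0.21, adjusted p = 0.0742, edgeR). For shYY1, 7 of the 10 were lower in ACHN, beside 16.5% of all genes, from GINS1 (-0.51, SE 0.0836, adjusted p = 1.92e-05, edgeR) to MCM5 (-0.17, SE 0.0607, adjusted p = 0.0289, edgeR). For shKDM5C, GINS2 alone differed (0.53, SE 0.124, adjusted p = 0.0173, edgeR), 1 of the 10 beside 5.74% of all genes higher. None was called lower by edgeR, beside 6.18% of all genes, while DESeq2 called 1 (MCM6) and 1 had an unadjusted p-value under 0.05. Without replicate 1 of HK-2 shKDM5C, 2 were higher (GINS2 at 0.50 and MCM7 at 0.23) and 2 lower (MCM6 at -0.25 and MCM3 at -0.15), beside 18.6% and 15.4% of all genes. The GINS2 call was lost without replicate 2 or 3 of ACHN shNC (adjusted p = 0.0529 and 0.0571, edgeR) and with no filter on low counts.

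Among 25 other genes that license and fire origins, a list chosen by function, most were also lower in Dsh cells. Of the 25, 16 were lower and 1 higher in ACHN (median log2 fold change -0.39), and 17 lower and 1 higher in HK-2 (median -0.33). The shares of all genes were 32.0% lower and 30.7% higher in ACHN, and 24.3% lower and 25.5% higher in HK-2. CDC6, which loads the ring, fell from 96.8 to 38.2 CPM on average in ACHN (-1.33, SE 0.053) and from 95.4 to 51.2 CPM in HK-2 (-0.90, SE 0.0616). In ACHN it was also lower in shKDM5C (-0.59) and shYY1 (-0.87), and its interaction was not called (0.11, adjusted p = 0.241, edgeR). CDT1, its partner in loading, was not called in ACHN (0.05, SE 0.0658) and fell slightly in HK-2 (-0.20, SE 0.0608). GMNN, the inhibitor of CDT1, fell in ACHN (-0.63, SE 0.0703) and had a value of 0.12 in HK-2 that was not called. TIMELESS, a fork protection factor, fell in both lines (-0.98, SE 0.052, and -1.24, SE 0.0522), and MCM9, a relative of the ring subunits that acts in repair, fell in HK-2 (-0.87, SE 0.128). Those called higher were ORC5, a subunit of the origin recognition complex, in ACHN (0.26) and DBF4, the activator of the CDC7 kinase, in HK-2 (0.37). The GINS complex has 4 subunits: GINS3 fell in both lines (-0.58 in ACHN and -0.61 in HK-2), and GINS4 fell in HK-2 (-0.28) and had a value of -0.04 in ACHN that was not called.

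**Figure D5:**
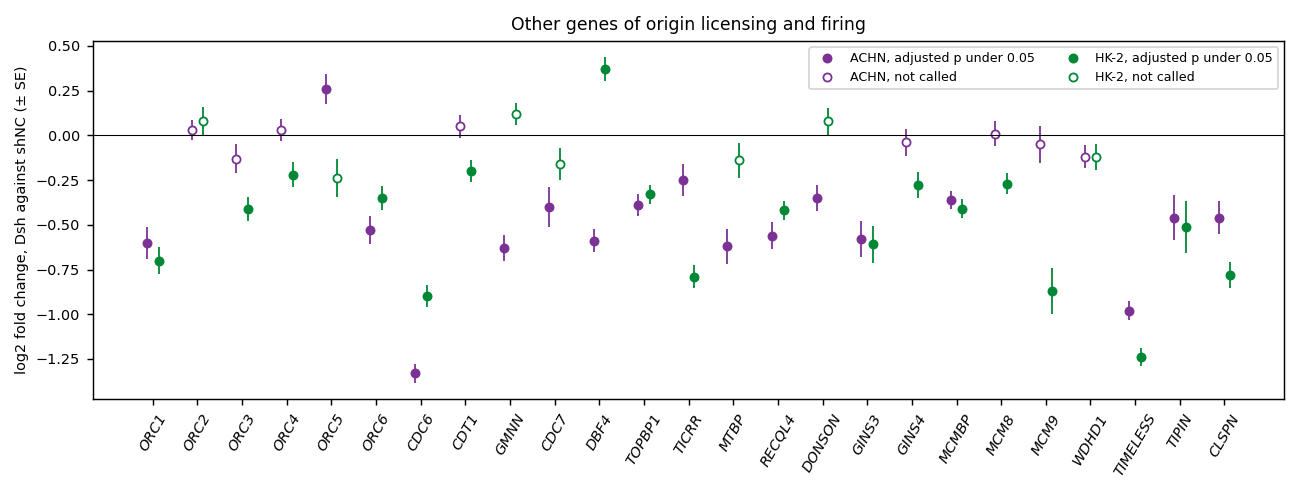
Log2 fold change of Dsh against shNC (± SE) of 25 other genes of origin licensing and firing in ACHN (purple) and HK-2 (green), filled where the adjusted p-value was under 0.05 and open where not. CDC6 reaches -1.33 in ACHN and TIMELESS -1.24 in HK-2, and DBF4 is called in opposite directions, -0.59 in ACHN and 0.37 in HK-2.

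In the shKDM5C cells of ACHN, 4 of the 25 genes were lower and 11 higher (median 0.07), beside 27.7% and 28.9% of all genes. In its shYY1 cells 6 were lower, a share near the 24.5% of all genes, and 3 were higher, beside 24.2% (median -0.02). In HK-2 shKDM5C, with replicate 1 included, none was called by edgeR, beside 0.656% of all genes lower and 0.668% higher. There 1 was lower and 1 higher at an unadjusted p-value under 0.05, and DESeq2 called 1 lower. In HK-2 shYY1, 2 were lower and 2 higher, beside 14.7% and 14.3% of all genes. Markers of proliferation moved with the helicase genes only in part. In ACHN Dsh cells MKI67 (-0.66), the S to G2 cyclin CCNA2 (-0.55) and the mitotic cyclin CCNB1 (-0.34) fell, while PCNA (0.19) and TOP2A, the topoisomerase of mitotic chromosomes (0.25), rose. In HK-2 Dsh cells PCNA (-0.68), MKI67 (-0.54), CCNA2 (-0.87) and CCNB1 (-0.34) fell, and TOP2A was not called (-0.05). In ACHN shYY1 cells, where 7 helicase genes fell, MKI67 (0.31), CCNA2 (0.38), CCNB1 (0.29) and TOP2A (0.09) rose, and PCNA was not called (0.02). In ACHN shKDM5C cells, where 4 fell and 2 rose, MKI67 (0.33), CCNA2 (0.73), CCNB1 (0.60) and TOP2A (0.63) rose as well. PCNA was not called there (0.08, adjusted p = 0.0519, edgeR). In HK-2 shYY1 cells, where MCM2 and MCM7 rose, MKI67 (-0.27) and CCNA2 (-0.34) fell, while PCNA (-0.02), CCNB1 (0.09) and TOP2A (-0.11) were not called. In HK-2 shKDM5C cells, with replicate 1 included, none of the 5 markers was called by edgeR or DESeq2 or had an unadjusted p-value under 0.05. The interaction was not particular to the helicase genes. Of the 25 genes it was lower in 15 and higher in 2 in ACHN, beside 4961 and 4625 of 17228 genes tested. In HK-2 it was lower in 6 and higher in 0, beside 752 and 890 of 17093. In ACHN it was -1.69 for CCNA2, -1.32 for MKI67, -1.25 for CCNB1 and -0.50 for TOP2A, and PCNA was not called (0.07). In HK-2 PCNA (-0.58) and CCNB1 (-0.44) alone of these markers were called. The part of the markers in the helicase changes was not tested.

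The pattern of the 10 genes over libraries was summarised as the mean of their standardized log2 CPM. In ACHN, over 12 libraries, 9 of the 10 followed it with a Pearson r of 0.955 to 0.993, and GINS1 with 0.607. In HK-2 all 10 followed it at 0.897 to 0.981. Among 9866 genes of at least 10 CPM in ACHN, a number that includes the members, 5 other genes were most like it. They were MSH6 of mismatch repair, the sterol synthesis enzymes HMGCS1 and FDPS, PGD of the pentose phosphate pathway and PSAT1 of serine synthesis, with r from 0.995 to 0.997. Among 9908 in HK-2 they were AIF1L, the uracil glycosylase UNG, PCNA, FTSJ3 of ribosome assembly and the guanine nucleotide enzyme IMPDH1, with r from 0.983 to 0.995. Each of the 10 genes is itself part of the mean it was compared with, which raises its r. These correlations describe 12 libraries in 4 groups that share the fall in Dsh cells, and carry no test.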

How the data were processed

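RNA-seq counts of 24 libraries (ACHN and HK-2, 4 groups each, 3 replicates) were analysed. The authors aligned 150 bp paired reads with HISAT2 2.0.5 and deposited raw counts of read pairs per gene (Ensembl release 84, GRCh38). The file headers name featureCounts 2.0.1 with no strand option, and the submitters' processing notes name version 1.5.0-p3. Of the 60675 genes, 4117 without a symbol held 0.243% of counts.

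For the tests, edgeR 4.0.16 was used (R 4.3.3, TMM scaling, edgeR's filter on low counts, quasi-likelihood F test, Benjamini-Hochberg adjustment over all genes tested). Only the compared groups entered a fit, all 12 libraries of a line for the interaction, and 4 groups for differences between lines. Genes of any fold passed with adjusted p-values under 0.05. Standard errors come from the F statistic, and intervals are at 95%. With 3 libraries against 3 an exact permutation test cannot go below 0.1, so no single gene was tested that way. Fits were tested on simulated counts.

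The members and lists were chosen with earlier results of these data known. Named besides the members are KDM5C, YY1, 5 proliferation markers, the 3 most changed in each direction of 25 licensing and firing genes in Dsh cells with GINS3, GINS4, CDC6, CDT1 and GMNN, and the 5 genes most like the members by Pearson r at a mean of at least 10 CPM. DBF4 in ACHN was named after its values were seen. Alternatives were DESeq2 1.42.0, RLE or total-count scaling, no filter, at least 10 counts in every library of a group, a replicate block, each library left out, all 4 groups in the fit, and a log2 fold change of at least 1.5. No libraries agreed within sampling noise. Equal replicate numbers did not pair samples (correlation of deviations -0.0399 to 0.0416 in ACHN and -0.0882 to 0.0373 in HK-2). Promoter sequences are RefSeq's (GRCh38.p14).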

Additional observations from a re-analysis of the deposited data

Results flagged for a closer look

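The knockdown effects of some helicase genes differed between ACHN and HK-2 in the test of the difference itself (ACHN minus HK-2 on the log2 scale, adjusted p-value under 0.05, edgeR). For shYY1 these were MCM2 (-0.35), MCM3 (-0.23), MCM4 (-0.18), MCM5 (-0.17), MCM6 (-0.29), GINS1 (-0.51) and MCM10 (-0.29). The MCM5 value was no longer called with DESeq2 or in 6 of the fits that left out 1 library. The MCM10 value was not called without replicate 3 of HK-2 shNC (-0.24, adjusted p = 0.0669, edgeR). For Dsh they were MCM2 (-0.34), MCM3 (-0.26), MCM6 (-0.68) and GINS1 (0.28), and for shKDM5C GINS2 (0.53). Of all genes in these tests, 16.5% were lower for shYY1, 22.7% lower and 23.3% higher for Dsh, and 5.74% higher for shKDM5C. The GINS1 call for Dsh and the GINS2 call for shKDM5C were lost in some alternative fits, as given above. The knockdowns themselves differed in depth: YY1 fell by 0.88 on the log2 scale in ACHN shYY1 and by 1.70 in HK-2 shYY1, and by 0.51 and 1.49 in Dsh cells. The part of that gap in the differences was not tested.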

How the results depend on the processing

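No value changed direction under any alternative where it was called. Of the values of single helicase genes, 2206 stayed on their side of the threshold, 25 passed it and 89 lost it. With a log2 fold change of at least 1.5, the genes lower were 2 for Dsh against shNC in ACHN, 1 each for Dsh against shKDM5C, Dsh against shYY1 and the interaction in ACHN, 1 each for Dsh against shNC and against shYY1 in HK-2, and 0 in all other comparisons, as were the genes higher. Of all genes, 500 of 16112 were lower past that fold for Dsh against shKDM5C in ACHN. There it was 930 of 16414 for Dsh against shYY1 and 757 of 17228 for the interaction. In HK-2 it was 138 of 15947 for Dsh against shYY1. With no filter on low counts, 2 were lower in ACHN shKDM5C, and 0 higher for the shKDM5C and Dsh effects between lines. With all 4 groups in the fit, 2 were lower in ACHN shKDM5C and 1 in HK-2 shKDM5C, and 0 higher in HK-2 shYY1. With total-count scaling, 1 was lower and 0 higher in HK-2 shYY1, and 4 were lower in the HK-2 interaction. With DESeq2, 1 was lower for the shKDM5C effect between lines. Leaving out 1 library at a time, the count lower was 0 to 2 in HK-2 shKDM5C, 0 to 1 in HK-2 shYY1, 2 to 10 for Dsh against shKDM5C in HK-2, 5 to 10 for the HK-2 interaction and 0 to 2 for the shKDM5C effect between lines, and the count higher was 0 to 2 in HK-2 shYY1, 0 to 2 for the shKDM5C effect and 0 to 1 for the Dsh effect. The count lower was also 3 to 4 in ACHN shKDM5C, 7 to 8 in ACHN shYY1 and 8 to 9 between the control lines. It was 6 to 8 for the shYY1 effect between lines and 3 to 4 for the Dsh effect. Where 1 library was left out, the cause of the change was not tested. For most of those fits the share of all genes called is not given. A general loss of calls thus cannot be told from a change in these genes. With the replicate number as a replicate block, all 10 genes remained lower in Dsh against shNC in both lines. The block ended the calls of MCM5 (-0.84, adjusted p = 0.0572, edgeR) and GINS1 (-0.55, adjusted p = 0.0988, edgeR) in HK-2 Dsh against shKDM5C, and of MCM2 (-0.50, adjusted p = 0.0548, edgeR) and MCM3 (-0.57, adjusted p = 0.0628, edgeR) in the HK-2 interaction, and no other call of these genes. In Dsh against shNC the genes with the lowest counts, GINS2, CDC45 and MCM10, had the largest standard errors. RNA levels say nothing about helicase protein or its loading.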
